A study of Mus musculus with 4 samples.

Results

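The genes of the unfolded protein response and the integrated stress response were followed in cultured primary mouse pancreatic ductal cells, as 32 named genes out of the 22869 gene symbols measured. They were chosen by symbol, and each gene was read from its RefSeq transcript with the highest mean count. All 32 were measured, and all 32 passed the filter on low counts. By role they comprise 14 chaperones and folding factors of the endoplasmic reticulum (ER), 4 genes of ER-associated degradation, 5 stress sensors and transcription factors, and 9 targets of the transcription factor Atf4.

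RNA was sequenced from 4 cultures of ductal cells of adult C57BL/6 mice. The control group (n = 2) was HhexL/L, which carries floxed alleles of the homeobox gene Hhex and no Cre. The other group (n = 2, littermates) was Sox9CreER;HhexL/L, in which the Sox9 promoter drives a tamoxifen-inducible Cre. The animals had not been induced, and all cultures, controls included, received 500 nM 4-hydroxytamoxifen for 4 days in vitro. A group with the Cre on unfloxed alleles was not among them, so effects of the Cre and of the floxed gene cannot be told apart.

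Each library held between 25257778 and 39582625 transcript counts, with the most in labelled knockout replicate 1, and no member had fewer than 257 counts in any library. The count of the whole Hhex transcript was not lower in the knockout group, and since deletion of floxed exons need not lower that count, it does not check the deletion. Hhex stood at 24.8 and 17.7 CPM (counts scaled by library size with TMM factors) in the control cultures against 23.6 and 38.9 CPM, with an edgeR adjusted p of 0.735. With the deletion unchecked here, that group's members are named libraries labelled knockout, or labelled knockouts, and where pairs of values follow a gene the controls come first. Labelled knockout replicate 2 was the only library with high Xist, the RNA of the inactive X chromosome (304 CPM against at most 1.75 CPM). The epithelial markers Krt8, Krt18, Krt19, Krt7, Epcam and Cdh1 lay at 429 CPM or above in every library. Of other cell types, 13 acinar markers summed to between 3.16 and 6.41 CPM and 10 endocrine markers to at most 4.26 CPM. Cela3b was at 0 in labelled knockout replicate 1, and Ptf1a, the acinar transcription factor, and Gcg, the glucagon gene, were at 0 in control replicate 2 and in labelled knockout replicate 2. Of the macrophage markers Cd14 lay between 108 and 205 CPM and Cd68 between 3.93 and 16.2 CPM, while the others, Ptprc and Csf1r among them, were at 1.49 CPM or below in every library. Lymphocyte markers summed to at most 5.02 CPM. Sox9, a duct marker and the source of the Cre's promoter, stood at 18 and 21.3 CPM against 52.2 and 44.2 CPM (edgeR adjusted p = 0.0512).

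When unfolded protein builds up in the ER, the lumenal chaperone Hspa5 (BiP) is drawn away from the membrane sensors Ern1 (IRE1), Eif2ak3 (PERK) and Atf6. Ern1 splices the Xbp1 mRNA, Atf6 is cut in the Golgi to release a transcription factor, and both routes raise chaperones and degradation factors. Eif2ak3 phosphorylates the initiation factor eIF2 alpha, which lowers general translation and favours translation of Atf4. Other kinases that sense amino acid shortage, viral RNA or haem loss reach the same step, so Atf4 targets can respond without ER stress. In the pancreas the response is best known from acinar and beta cells, which secrete far more protein than duct cells do.

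None of the 32 genes passed the test between the groups across all transcripts. edgeR's quasi-likelihood test gave adjusted p-values from 0.537 to 0.986 for them, and 0 of 32 passed 0.05, against 0.153% of all transcripts tested (0.105% higher and 0.0477% lower). At an unadjusted p under 0.05 there were 6, of which 5 were higher (Dnajc3, Herpud1, Edem1, Asns and Psat1) and 1 lower (Ddit4). The background at that level was 7.49% of genes, with 4.62% higher and 2.87% lower. DESeq2 called 0 of 32 as well. Fold changes were small, and the 2 above 1.5-fold were Asns and Psat1.

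Overlap of the groups was counted as well. In 18 of the 32 genes, each labelled knockout lay above each control, and in 3 each lay below. Over all genes tested the shares were 18.8% and 17.4%, and over the 8715 genes with a mean of at least 10 CPM, which all 32 members reach, they were 25.3% and 15.4%. The count of 18 was 16 with RLE size factors, 14 with upper-quartile factors, 12 with library totals and 17 in deposited RPKM, scalings that were compared after the data were seen. The 3 genes that lay below were Ern1, Sdf2l1 and Ddit4, and in deposited RPKM 1 was left. Of the 32 fold changes 25 were positive, against 48% of all genes and 58.8% of those with at least 10 CPM. Their median log2 fold change was 0.20, and that of all transcripts tested, those under 10 CPM included, was -0.01. A median over genes of at least 10 CPM alone was not computed. No test of the list as a whole was made, since its members were chosen with results of these data known.

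**Figure D1:**
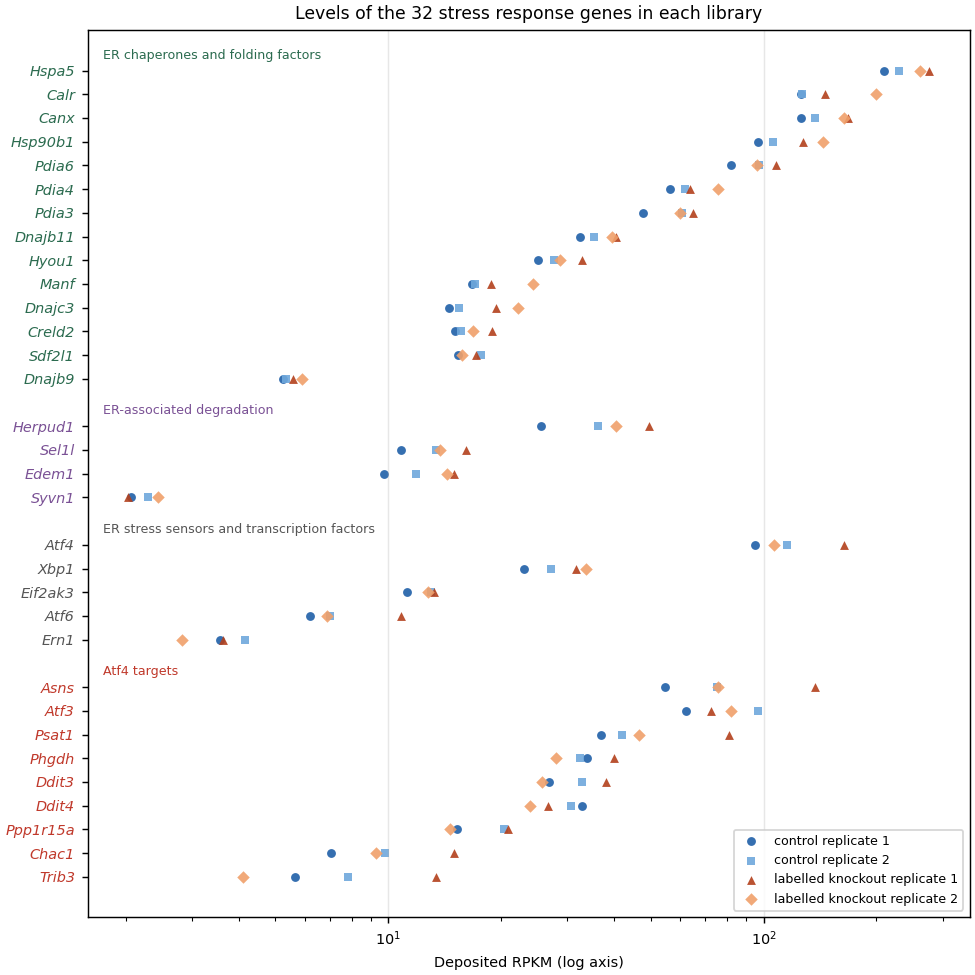
Deposited RPKM of each of the 32 genes in each of the 4 libraries, on a log axis, grouped by role and ordered by mean level. Hspa5 is the most abundant at 244 RPKM and Syvn1 the least at 2.20 RPKM, and the points of one gene mostly lie closer together than those of different genes.

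Levels per transcript length were read from the authors' deposited RPKM, and the lumenal and lectin chaperones were the most abundant members. Hspa5 stood at 209.7 and 229 RPKM in the controls and 277 and 261 RPKM in the labelled knockouts, a mean that ranked 89 among all 22869 symbols. Calr, Canx, Atf4 and Hsp90b1 followed, with mean levels of 149, 149, 120.2 and 118 RPKM. Calr and Canx did not differ beyond their spread over the libraries, nor did Atf4 and Hsp90b1. At the other end were the sensors Atf6 and Ern1 at 7.73 and 3.54 RPKM, the co-chaperone Dnajb9 at 5.52 RPKM and Syvn1 at 2.20 RPKM. Among the Atf4 targets, Asns and Atf3 were the most abundant (means of 85.7 and 78.4 RPKM) and Trib3 the least (7.75 RPKM).

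The values of most chaperones and folding factors stood slightly higher in both labelled knockouts. Of the 14 genes, 13 had positive fold changes with a median log2 fold change of 0.17, and none passed edgeR (adjusted p from 0.580 to 0.973). In 11 the groups did not overlap, with the labelled knockouts higher. Over genes of at least 10 CPM, 58.8% had positive fold changes and 25.3% did not overlap upward. With library totals in place of TMM factors the count of 11 became 6, and with upper-quartile factors 8. Dnajb9, one of the 13, had a negative fold change under both of these scalings, which moved the median log2 fold change of all transcripts by -0.08 and -0.05. The controls matched closely, with a median difference of 1.03-fold between them over the 14 genes, and the labelled knockouts differed by 1.08-fold. For genes of at least 10 CPM those median differences were 1.11-fold and 1.15-fold. Beside this, 11 fibroblast markers summed to 29.8 and 25.4 CPM in the control cultures and to 12.4 and 14.2 CPM, with all 9 tested at negative fold changes and Lum at 0 in labelled knockout replicate 1. Of the 4 mesothelial markers Msln alone was abundant, at 1582 and 2011 CPM against 3136 and 4482 CPM, while Wt1, Upk3b and Lrrn4 lay at 1.87 CPM or below in every library. The part of fibroblasts and of Msln-expressing cells in the chaperone values was not tested.

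Hspa5, the main Hsp70 of the ER lumen, stood at 774 and 783 CPM in the control cultures against 914 and 906 CPM in the labelled knockouts. The difference of 1.17-fold had a 95% interval of 0.854 to 1.6 (log2 fold change 0.22 ± 0.19 SE, edgeR adjusted p = 0.893). The groups did not overlap, and within each group the values were nearly equal, yet the interval, which draws on the spread of all transcripts, included 1. Canx, the membrane lectin chaperone of newly made glycoproteins, was similar in level and pattern, at 763 and 766 CPM in the control cultures against 908 and 932 CPM in the others. Its 3 RefSeq transcripts had counts within 1 read of each other in each library and are not separate evidence.

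Hsp90b1 (Grp94), the ER Hsp90, was at 376 and 381 CPM in the control cultures against 444 and 526 CPM in the labelled knockouts. Calr, the lumenal lectin partner of Canx, was at 344 and 322 CPM against 357 and 514 CPM, and Manf, a small secreted ER stress protein, at 51.9 and 49.2 CPM against 52.3 and 71.3 CPM. In these 3 genes the higher value was that of labelled knockout replicate 2, and for Calr and Manf replicate 1 lay close to the controls. Without labelled knockout replicate 1, where a single library stands for its group, the log2 fold changes of Calr and Manf were 0.60 and 0.47. Over all fits with 1 library left out they ran from 0.083 to 0.60 and from 0.031 to 0.47.

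Dnajc3 (p58IPK), a co-chaperone that also restrains eIF2 alpha kinases, had the largest fold change of the 14. It was at 106 and 105 CPM in the control cultures against 127 and 152 CPM in the labelled knockouts, 1.32-fold, 95% interval 1.03 to 1.7 (edgeR adjusted p = 0.58). Without labelled knockout replicate 1 its log2 fold change was 0.50, and over all fits with 1 library left out it ran from 0.25 to 0.50. Another Hsp40, Dnajb11, a cofactor of Hspa5, was at 91.8 and 92.6 CPM against 102 and 105 CPM. Dnajb9, an Hsp40 that represses Ern1, was at 13.8 and 13.0 CPM against 13.1 and 14.6 CPM, and its groups overlapped.

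The disulfide isomerases came next by role. Pdia3, which works with Calr and Canx, was at 178 and 209 CPM in the control cultures against 216 and 210.0 CPM in the others, and Pdia6 at 245 and 269 CPM against 289 and 271 CPM. In both genes control replicate 2 lay within 1% of labelled knockout replicate 2, so the separation was narrow. Pdia4 was at 198 and 199.6 CPM against 199 and 249.6 CPM, with labelled knockout replicate 1 among the controls. Creld2, a stress-induced isomerase, was at 29.0 and 27.9 CPM against 32.6 and 30.4 CPM, and Hyou1 (Grp170), a nucleotide exchange factor of Hspa5, at 157 and 159.8 CPM against 183 and 168 CPM. Sdf2l1, a partner of the Hspa5 cycle, was the only chaperone that stood lower, at 24.1 and 25.5 CPM against 24 and 23.1 CPM, a log2 fold change of -0.07 ± 0.15 (SE) that was smaller than its error.

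Many promoters of the chaperones hold the ER stress response element bound by Atf6 with NF-Y. The genes were listed as members of this response, so matches to its element are not independent of that choice. RefSeq windows of 300 bases (250 before to 50 after the start, GRCm38.p6) were matched for 29 of the 32 genes, with no window for Atf6, Hyou1 and Manf. The full element was searched on both strands as CCAAT and CCACG set 9 bases apart, and its shorter relative ERSE-II as ATTGG and CCACG set 1 base apart; no window of a member held both. The full element was found in 7 of the 12 chaperone windows, in Syvn1 of the degradation genes and in none of the Atf4 targets, against 0.119% of all 32817 windows. ERSE-II was found in Dnajb11 and Herpud1, against 0.0366% of all windows. The stretches below show one element for each such gene of the chaperone list and for Herpud1, with the matched letters in capitals, read in the direction of the gene.
Hspa5, chr2:34772005-34772063, plus strand: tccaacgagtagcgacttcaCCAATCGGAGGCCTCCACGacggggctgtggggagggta
Hsp90b1, chr10:86705513-86705571, minus strand: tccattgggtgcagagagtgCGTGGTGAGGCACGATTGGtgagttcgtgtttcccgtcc
Calr, chr8:84847055-84847113, minus strand: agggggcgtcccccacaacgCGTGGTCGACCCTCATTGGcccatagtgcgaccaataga
Canx, chr11:50325780-50325838, minus strand: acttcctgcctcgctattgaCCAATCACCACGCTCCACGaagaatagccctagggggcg
Dnajc3, chr14:118937807-118937865, plus strand: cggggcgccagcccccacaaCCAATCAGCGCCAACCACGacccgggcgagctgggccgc
Creld2, chr15:88819500-88819558, plus strand: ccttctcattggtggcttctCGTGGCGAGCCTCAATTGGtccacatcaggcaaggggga
Pdia6, chr12:17266471-17266529, plus strand: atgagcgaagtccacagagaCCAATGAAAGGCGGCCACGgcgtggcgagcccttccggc
Dnajb11, chr16:22857843-22857871, plus strand: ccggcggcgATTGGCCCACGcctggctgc
Herpud1, chr8:94386357-94386407, plus strand: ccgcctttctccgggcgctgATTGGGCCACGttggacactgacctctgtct
Those of Calr, Creld2 and Hsp90b1 are on the opposite strand, so that CGTGG comes before ATTGG, and Hsp90b1 has another match that is not shown. The 8 chaperones with a match had a median log2 fold change of 0.25 (range 0.12 to 0.40), and the 4 without one, Dnajb9, Sdf2l1, Pdia3 and Pdia4, a median of 0.09 (range -0.07 to 0.17). These ranges overlap, no test was made of them, and a match of letters does not show binding. The Xbp1 element TGACGTGG was found in 0.676% of all windows and in no member's window.

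The genes of ER-associated degradation, which returns misfolded protein to the cytosol for destruction, had a median log2 fold change of 0.31 over 4 genes. Herpud1, a membrane scaffold of the degradation complex, was at 67.5 and 88.7 CPM in the control cultures against 117 and 100.5 CPM in the labelled knockouts. That was 1.39-fold, 95% interval 1.04 to 1.86 (edgeR adjusted p = 0.571). Its groups did not overlap, but the controls differed from each other by 1.32-fold. Without labelled knockout replicate 2 the log2 fold change of Herpud1 was 0.57, and over all fits with 1 library left out it ran from 0.29 to 0.72. Edem1, which picks out misfolded glycoproteins, was at 80.7 and 90.6 CPM in the control cultures against 111 and 112 CPM in the others, 1.3-fold with an interval of 1.03 to 1.64. Here the labelled knockouts were nearly equal, at a level above both controls (edgeR adjusted p = 0.577). Sel1l, the adaptor of the ligase complex, was at 96 and 110.5 CPM against 128 and 115 CPM, and its ubiquitin ligase Syvn1 (Hrd1) at 10.1 and 10.4 CPM against 8.86 and 11.2 CPM. For Syvn1 the labelled knockouts lay on either side of the controls.

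**Figure D2:**
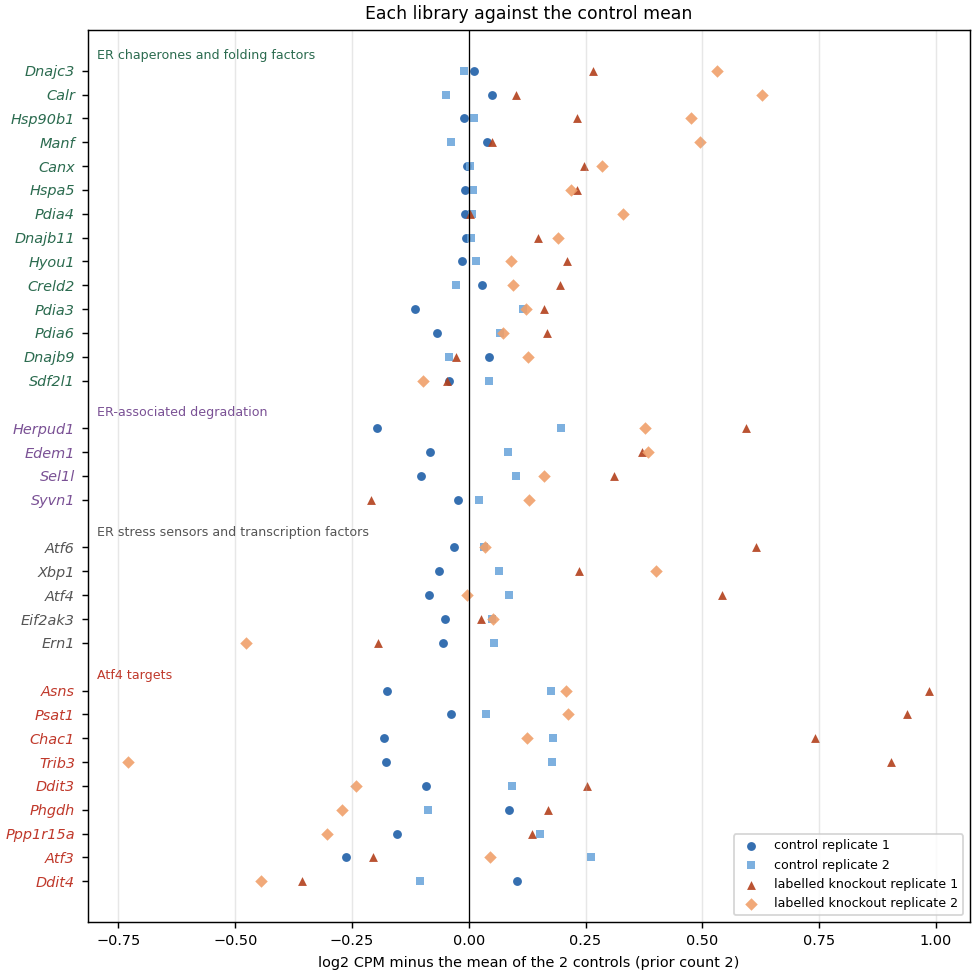
For each gene, log2 CPM of each library minus the mean of the 2 controls (prior count 2), grouped by role and ordered by fold change. The points of labelled knockout replicate 1 lie far to the right for Asns, Psat1, Chac1 and Trib3, while those of replicate 2 lie furthest right for Calr, Dnajc3, Manf and Hsp90b1.

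The sensors and transcription factors had fold changes in both directions, 4 positive and 1 negative. Ern1, the kinase and RNase of the most conserved branch, was lower in both labelled knockouts, at 18.2 and 14.9 CPM against 20.02 and 21.6 CPM in the controls. The log2 difference was -0.33 ± 0.17 (SE; edgeR adjusted p = 0.758). Eif2ak3, the PERK kinase, stood at 71.1 and 76.1 CPM against 74.9 and 76.2 CPM, and the 95% interval of its fold change was 0.822 to 1.28. That interval leaves room for a modest change in either direction.

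Atf6 was at 65.2 and 68.1 CPM in the control cultures against 102 and 68.3 CPM in the labelled knockouts. Replicate 1 alone was high, and replicate 2 differed from control replicate 2 by less than 1%. Xbp1, the transcription factor made from the spliced mRNA, was at 58.4 and 63.8 CPM in the control cultures against 71.9 and 80.6 CPM in the others, 1.25-fold, interval 0.985 to 1.58 (edgeR adjusted p = 0.695). The table has 1 Xbp1 transcript, so spliced and unspliced mRNA cannot be told apart in it. Atf4 was at 231 and 259.8 CPM in the control cultures against 357 and 244 CPM in the others, where again only replicate 1 was high and the groups overlapped. Without labelled knockout replicate 2, where a single library stands for its group, the log2 fold changes of Atf6 and Atf4 were 0.60 and 0.52. Without replicate 1 the log2 fold change of Atf4 was -0.03. Over all fits with 1 library left out that of Atf6 ran from 0.0085 to 0.60. Atf4 is controlled largely at translation, which RNA levels do not show.

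**Figure D3:**
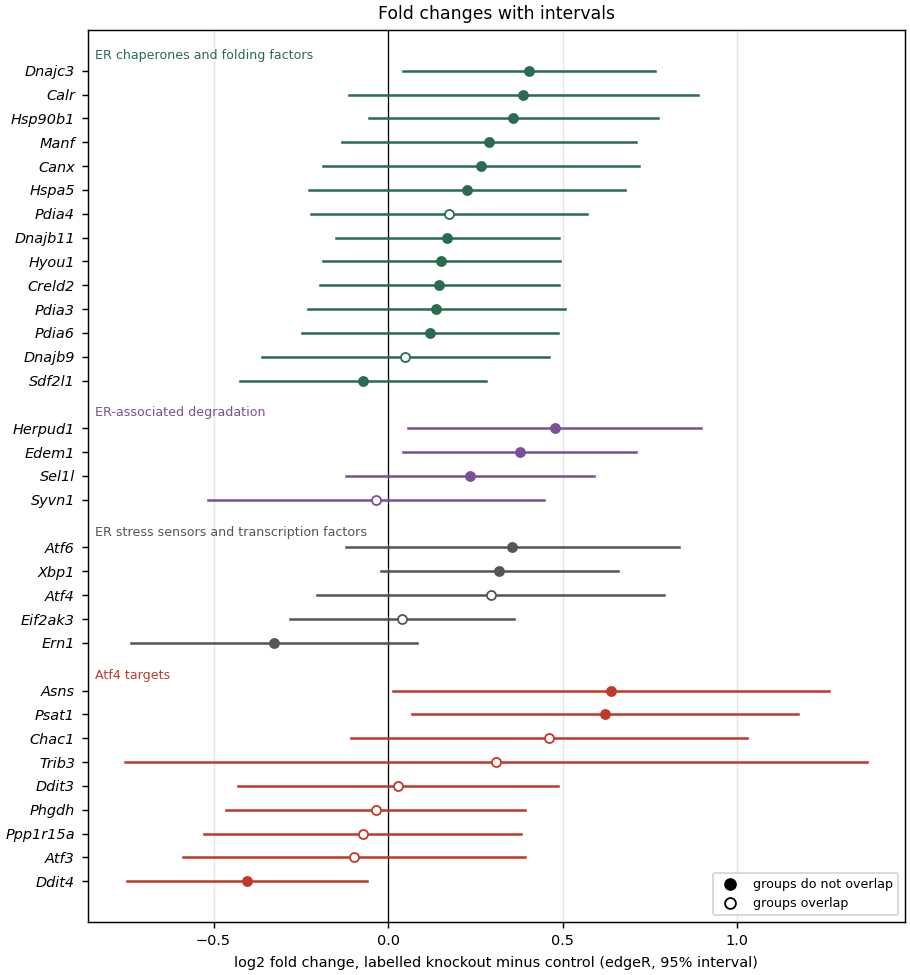
edgeR log2 fold change of each gene, labelled knockout minus control, with its 95% interval, grouped by role. Filled points mark the 21 genes whose groups do not overlap, open points the other 11. Intervals of 6 genes exclude 0 before adjustment, and that of Trib3 is the widest.

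The Atf4 targets varied more between the libraries of a group than the chaperones did. Of the 9 genes 5 had positive and 4 negative fold changes, with a median log2 fold change of 0.03, and 2 had groups that did not overlap with the labelled knockouts higher and 1 lower. These shares are near those of genes of at least 10 CPM, 25.3% higher and 15.4% lower. None passed edgeR (adjusted p from 0.537 to 0.986). In 8 of the 9 genes labelled knockout replicate 1 lay above replicate 2, and in 7 they differed by more than 1.3-fold, against 2 of the 14 chaperones. Shares over all genes were not computed for these counts. Labelled knockout replicate 1 was the highest library in 6 of the 9 genes (5 with library totals), against 39.9% of genes of at least 10 CPM. The median difference between the labelled knockouts was 1.41-fold and between the controls 1.24-fold. For genes of at least 10 CPM those median differences were 1.15-fold and 1.11-fold.

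The amino acid enzymes Asns and Psat1 had the largest fold changes of the 32 genes. Asns, which makes asparagine and is among the best known Atf4 targets, was at 149 and 189.7 CPM in the control cultures against 333 and 194 CPM in the labelled knockouts. Its difference of 1.56-fold had a 95% interval of 1.01 to 2.4 (log2 fold change 0.64 ± 0.27 SE, edgeR adjusted p = 0.641). Replicate 1 stood apart, and replicate 2 lay just above control replicate 2. Psat1, of serine synthesis, was at 113 and 119 CPM against 222 and 134 CPM, 1.54-fold, interval 1.05 to 2.26 (edgeR adjusted p = 0.579). Phgdh, the entry enzyme of the same pathway, was at 89.3 and 79.1 CPM against 94.5 and 69.6 CPM, with replicate 1 only slightly above the controls and the lowest value in replicate 2.

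Trib3, a pseudokinase that feeds back on Atf4, differed most between the labelled knockouts. It was at 16.4 and 21 CPM in the control cultures against 34.7 and 11.2 CPM in the others, a 3.12-fold difference within one group, with the controls in between. Its fold change of 1.24 had an interval of 0.593 to 2.59 (edgeR adjusted p = 0.937). With replicate 1 as the only library of its group edgeR gave a log2 fold change of 0.88, and with replicate 2 as the only one -0.77. Chac1, which degrades glutathione, was at 15.6 and 20.05 CPM in the control cultures against 29.6 and 19.3 CPM in the others, and replicate 2 lay between the controls. Without replicate 2, the log2 fold changes of Asns, Psat1 and Chac1 were 0.96, 0.92 and 0.72. The lowest values of these genes over all fits with 1 library left out were 0.17, 0.19 and 0.093.

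The stress regulators of the list had fold changes near or below 1. Ddit3 (CHOP), the factor linked to cell death under lasting ER stress, was at 32.9 and 37.4 CPM in the control cultures against 41.8 and 29.7 CPM in the labelled knockouts. Ppp1r15a (GADD34), which restores translation by dephosphorylating eIF2 alpha, was at 50.3 and 62.1 CPM against 61.4 and 45.3 CPM. Atf3, a stress transcription factor, was at 174 and 249.96 CPM against 181 and 215 CPM. In all 3 genes the groups overlapped, and the 95% intervals of the fold change were 0.742 to 1.4, 0.694 to 1.3 and 0.665 to 1.31. Ddit4 (REDD1), an inhibitor of mTORC1, was the only Atf4 target lower in both labelled knockouts, at 56.6 and 53.3 CPM against 77.9 and 67.5 CPM. Its log2 fold change was -0.40 ± 0.15 (SE), and its edgeR adjusted p of 0.537 was the smallest of the 32 genes. Without replicate 1 its log2 fold change was -0.48, and over all fits with 1 library left out it ran from -0.48 to -0.30.

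The C/EBP-ATF element that Atf4 binds was searched on both strands as TGATGNAA in the same windows. It was found in 4 of the 9 Atf4 targets and in Herpud1, against 3.97% of all windows, and in none of the 12 chaperone windows. The matches before the start are shown to set the targets that were high in replicate 1, Asns and Chac1, beside Atf3, which was not. Trib3 also holds a match, after its start.
Asns, chr6:7693210-7693252, minus strand: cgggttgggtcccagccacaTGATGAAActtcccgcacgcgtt
Chac1, chr2:119351029-119351076, plus strand: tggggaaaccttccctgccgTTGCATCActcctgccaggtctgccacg
Atf3, chr1:191183416-191183463, minus strand: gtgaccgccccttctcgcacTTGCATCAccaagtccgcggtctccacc
In Chac1 and Atf3 the element is on the opposite strand, as TTGCATCA, the same letters in both genes. Psat1 has no match in its windows, although its values resembled those of Asns. Targets with and without a match had overlapping fold changes, with median log2 values of 0.39 (range -0.10 to 0.64) over the 4 with one and -0.04 (range -0.40 to 0.62) over the 5 without. Elements outside these windows were not searched.

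Set side by side, the chaperones and the Atf4 targets differed in which libraries carried the shift. The median over the 14 chaperones, as log2 CPM less the mean of the controls, was -0.01 and 0.01 for the controls, against 0.16 and 0.20 for the labelled knockouts. Over the 9 Atf4 targets it was -0.15 and 0.15 in the controls, 0.25 in labelled knockout replicate 1 and -0.24 in replicate 2. In each list the control values mirror each other by construction, since their own mean was subtracted, and opposite differences between genes can cancel in such a median. The chaperone medians of the groups were separated and the Atf4 target medians were not. The difference of the median log2 fold changes, chaperones minus Atf4 targets, was 0.14, less than the 0.30 SD of this difference between replicates. It was -0.09 without labelled knockout replicate 2 and 0.45 without replicate 1. Over genes of all kinds, those under 10 CPM included, the median shift was -0.02 and 0.02 for the controls, against -0.01 and 0.01. Genes of at least 10 CPM, as all members are, leaned further upward: 58.8% had positive fold changes, against 48% of all genes.

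**Figure D4:**
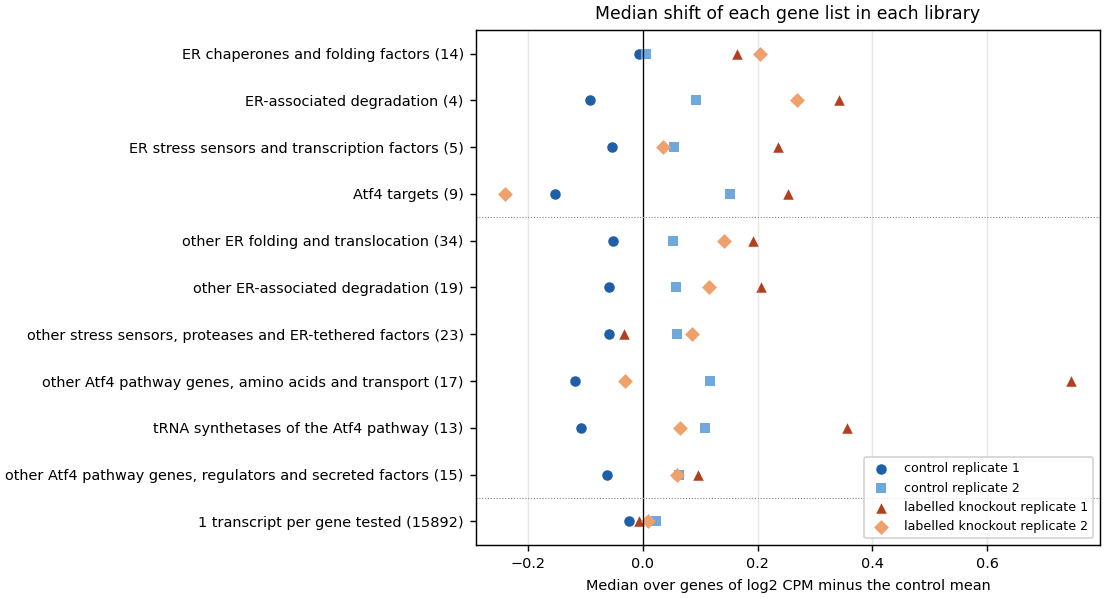
Median over genes of log2 CPM minus the control mean, for each list and library, with the number of genes tested in parentheses. The 4 upper lists are the 32 genes by role, the middle 6 are other genes of the same pathways, and the lowest is 1 transcript for each gene tested. Amino acid and transport genes stand at 0.75 in labelled knockout replicate 1 and at -0.03 in replicate 2.

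Other genes of the pathways, taken from lists outside the 32, were described in the same way. None of their 121 genes tested passed edgeR. Of 17 other Atf4 pathway genes of amino acid synthesis and transport, 16 had positive fold changes with a median log2 fold change of 0.47, and all 17 were highest in labelled knockout replicate 1. Over all genes tested 28.7% were highest in that library, and 39.9% of those with at least 10 CPM. With library totals in place of TMM the count was 16 of 17. Slc1a5, a glutamine transporter, was at 5.21 and 3.97 CPM in the control cultures against 10.8 and 8.35 CPM in the labelled knockouts (edgeR adjusted p = 0.269). The arginine and lysine transporter Slc7a1 was at 42.7 and 49.3 CPM against 79.4 and 59.7 CPM, and the alanine transaminase Gpt2 at 53.2 and 59.1 CPM against 79.5 and 73.7 CPM. In these 3 genes replicate 2 was above both controls too. Cth and Slc7a11, the cysteine enzyme and the cystine transporter, were picked with their values in view. They stood at 10.9 and 14.7 CPM against 46.7 and 8.06 CPM and at 28.3 and 43.8 CPM against 90.3 and 21.1 CPM, with replicate 2 below both controls.

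The tRNA synthetases, another Atf4-linked group, gave a like picture at smaller size. All 13 had positive fold changes with a median log2 fold change of 0.19, and all 13 were highest in labelled knockout replicate 1 (12 with upper-quartile factors and 11 with library totals). Their median shift there was 0.36, against 0.07 in replicate 2. Iars, for isoleucine, was at 102 and 120.2 CPM against 149 and 129 CPM, Lars, for leucine, at 242 and 332 CPM against 423 and 317 CPM, and Gars, for glycine, at 230.2 and 267 CPM against 347 and 262 CPM. Labelled knockout replicate 1 also had the most counts and the lowest summed levels of endothelial markers (4.50 CPM against 5.63 to 12.6 CPM) and fibroblast markers (12.4 CPM against 14.2 to 29.8 CPM). The part of depth, of these cells and of the sex of replicate 2 in the Atf4 pattern was not tested.

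Regulators and secreted products of the Atf4 pathway went their own ways, with 8 of 15 fold changes positive and a median log2 fold change of 0.05. Gdf15, a stress hormone, was at 37.3 and 23.7 CPM in the control cultures against 16 and 7.93 CPM in the labelled knockouts (log2 fold change -1.34 ± 0.34 SE, edgeR adjusted p = 0.309). Stc2, a secreted glycoprotein, was at 15.3 and 10.05 CPM against 5.14 and 7.54 CPM, and the angiogenic factor gene Vegfa at 204 and 223 CPM against 279 and 374 CPM. The groups of each of these 3 genes, named for the smallest edgeR p of the list, did not overlap. Of all 15 genes, 5 did not overlap upward and 3 downward. Over all genes tested those shares were 18.8% and 17.4%, and over genes of at least 10 CPM 25.3% and 15.4%. Nupr1, a small stress-induced chromatin protein chosen after its values were seen, was at 192 and 251 CPM in the control cultures against 249.99 and 111 CPM in the others, lowest in replicate 2 as Trib3 was.

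The wider ER machinery also had mostly positive fold changes. Of 34 other genes of ER folding and translocation, 28 had positive fold changes with a median log2 fold change of 0.15, and 18 had groups that did not overlap with the labelled knockouts higher. Over genes of at least 10 CPM 58.8% were positive and 25.3% did not overlap upward, and over all genes 48% and 18.8%. Ero1lb, an ER oxidase of the pancreas, was at 6.08 and 5.67 CPM in the control cultures against 10.3 and 9.15 CPM in the labelled knockouts, 1.66-fold (edgeR adjusted p = 0.396). Spcs3, of the signal peptidase, was at 69 and 77 CPM against 90.8 and 92.6 CPM, and Ssr2, of the translocon, at 44.6 and 48 CPM against 71 and 51.4 CPM. Of 19 other degradation genes 15 had positive fold changes and 10 did not overlap upward. Ube2g2, a ubiquitin-conjugating enzyme of this route, was at 49.9 and 54 CPM against 73.3 and 64.5 CPM, Ube2j1, another, at 60.8 and 71.5 CPM against 77.9 and 79.8 CPM, and the segregase gene Vcp at 15.4 and 15.4 CPM against 42.4 and 16.8 CPM, where replicate 1 alone was high.

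Other sensors, proteases and tethered factors showed no such lean, with 11 of 23 fold changes positive and a median log2 fold change of -0.03. Nfe2l2 (NRF2), the antioxidant factor that PERK can activate, was at 73.7 and 94.3 CPM in the control cultures against 129 and 96 CPM in the labelled knockouts. Mbtps2, the protease that makes the final cut in Atf6, was at 16.6 and 19.7 CPM against 22.9 and 23.1 CPM. Nck1, an adaptor that acts on eIF2 alpha phosphorylation, was lower at 31 and 26.3 CPM against 34.6 and 36.9 CPM. In bulk cultures, fewer cells of a type and less RNA in each cell cannot be told apart.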

How the data were processed

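RNA was sequenced from 4 cultures, 2 a group. Raw counts per RefSeq transcript were deposited by the authors on build mm9, and edgeR is named, per the submitters' processing notes; aligner, counter and strand setting are not given in the sources used here. RPKM values, scaled by transcript length and a library total that is not stated, were also deposited by the authors. Relative to control replicate 1, the totals they imply were 0.832 in control replicate 2 and 1.216 and 1.063 in the labelled knockouts. The count totals, in the same order, were 0.99, 1.551 and 1.209, so the RPKM totals do not follow the counts. RPKM values served for levels between genes, with log2(RPKM + 1) and log2(RPKM + 0.1) as alternatives.

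All 28644 transcripts entered edgeR 4.0.16 (R 4.3.3): filterByExpr (20949 kept), TMM factors, quasi-likelihood test, Benjamini-Hochberg adjustment over all kept transcripts. Intervals are the 95% intervals of that fit, with 2 residual and 5.359 prior degrees of freedom. The procedure was tested on simulated counts with the same spread for every transcript and changes larger than that of any member. That test does not show how changes of the members' size, or genes of uneven spread, are handled. Replicates are cultures from different mice; leaving one out leaves a group with 1 library, which is then assumed to vary like the other group. Every member is named; of each other pathway list, the 3 genes with the smallest edgeR p were named. The members and lists were chosen with earlier results of these data known. Promoter windows are from RefSeq, on another build than the counts, so the files' coordinates were not used. Limma 3.58.1 and DESeq2 1.42.0 ran the alternatives.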

Additional observations from a re-analysis of the deposited data

How the results depend on the processing

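Of the 32 genes, 0 passed edgeR as reported or under any of the 12 alternatives that kept all libraries, DESeq2 and limma included, while 4 to 6 had an unadjusted p under 0.05. With 1 library left out the count ran from 0 to 7. It was 5 without labelled knockout replicate 1 (Dnajc3, Calr and Manf higher, Trib3 and Ddit4 lower) and 7 without replicate 2 (Atf6, Atf4, Herpud1, Asns, Trib3, Chac1 and Psat1, all higher). Over all transcripts the 32 calls became 5 with library totals and 5 with upper-quartile factors, 4 with a filter of 1 CPM in 2 libraries, 2 with 1 transcript a gene and 14 with counts summed per symbol. They became 64 with robust quasi-likelihood, 270 with edgeR's exact test, 303 with DESeq2, and 190 and 221 with limma on log2(RPKM + 1) and log2(RPKM + 0.1). Leaving out 1 library gave 0 to 1911 calls: 0 and 3 without control replicate 1 or 2, and 1742 and 1911 without labelled knockout replicate 1 or 2. The transcripts tested numbered 22176 without labelled knockout replicate 1 and 21986 without replicate 2. The 5 and 7 calls among the 32 genes thus came in the fits where calls over all transcripts also rose. The shares called among the 32 genes and over all transcripts were not compared by a test. The cause of the changes in calls was not tested.

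The chaperone median stayed positive throughout: 0.10 with library totals, 0.12 with upper-quartile factors, 0.15 with the 1 CPM filter, 0.15 with 1 transcript a gene, 0.23 and 0.24 in RPKM, and 0.15 to 0.25 with 1 library left out. That of the Atf4 targets ran from -0.27 to 0.24 with 1 library left out. Among single genes, library totals and upper-quartile factors turned the log2 fold change of Eif2ak3 (-0.034 and -0.0096), Dnajb9 (-0.027 and -0.0027) and Ddit3 (-0.050 and -0.024) negative. These scalings moved the median of all transcripts by -0.075 and -0.050, about as far as they moved these 3 genes and the chaperone median. RPKM turned that of Syvn1 (0.021 and 0.028) and Phgdh (0.018 and 0.018) positive. The median of all transcripts also moved upward in RPKM, by 0.045 with log2(RPKM + 1) and 0.064 with log2(RPKM + 0.1). With 1 library left out the sign also changed for 11 genes, whose log2 fold changes ranged as follows: Eif2ak3 -0.013 to 0.13, Atf4 -0.031 to 0.52, Dnajb9 -0.048 to 0.10, Sdf2l1 -0.12 to 0.0069, Pdia4 -0.015 to 0.30, Syvn1 -0.23 to 0.10, Trib3 -0.77 to 0.88, Phgdh -0.30 to 0.15, Ddit3 -0.27 to 0.24, Atf3 -0.34 to 0.22 and Ppp1r15a -0.33 to 0.12.

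No paired analysis was possible because the labels give no replicate numbers shared between groups. With 2 libraries a group, a p that misses the threshold does not show that a gene was level.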
